A study of Homo sapiens with 5 samples.

Results

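ISL2, ZBED5, ALKBH5, SNX14 and ATP5L are 5 human genes whose start sites lie at some of the widest chromatin regions that 2 antibodies against PRDM11 had in common in U2932 cells. The genes were chosen by measured values: each start site is at 1 of the 10 widest antibody 1 peaks (called against IgG) that overlap an antibody 2 peak, and every peak within 10 kb of that start site was taken from the 6 deposited peak lists. All 5 genes had peaks in all 6 lists. For antibody 1 and antibody 2 against IgG the choice fixed this, so nothing is read from it. With the lists called against IgG, the windows of the 5 genes held 8 of 13499 antibody 1 peaks, 40 of 465837 antibody 2 peaks and 16 of 50161 RNA polymerase II peaks. With the lists called against input, they held 13 of 54038, 39 of 486796 and 25 of 80364.

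U2932 is an established human lymphoma cell line, here left untreated. Chromatin immunoprecipitation with sequencing (ChIP-seq) was done in 1 library each with PRDM11 antibody 1 and PRDM11 antibody 2, which are rabbit polyclonal and non-commercial, and with an RNA polymerase II antibody. A rabbit IgG library and an input library without antibody (the sheared chromatin itself) were the controls that all peak lists share. With 1 library per antibody no value has an error between replicates and no test was possible; the lists hold positions only, so the depth behind each peak is unknown.

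PRDM11 belongs to the PR domain family, proteins that act on chromatin and transcription through a domain related to histone methyltransferases. RNA polymerase II transcribes protein-coding genes and gathers at active start sites, so its ChIP-seq peaks commonly mark promoters. The 5 genes belong to no common pathway. ISL2 is a LIM-homeodomain transcription factor known from motor neuron development, and ZBED5 is a BED-type zinc finger protein that derives from a DNA transposase. ALKBH5 removes the m6A methyl mark from RNA, SNX14 is a sorting nexin whose loss causes a recessive cerebellar ataxia, and ATP5L (now ATP5MG) is subunit g of the mitochondrial ATP synthase.

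The RefSeq promoters show which letters stand at the annotated starts of these genes. The RefSeq sequences of build GRCh38.p14, 250 bases before to 50 after the annotated start, were matched by symbol or synonym for all 5 genes. They are printed from 5′ to 3′ along the gene. Capitals mark the matches of 9 short motifs searched on both strands: TATAAA of the TATA box, CCAAT of the site of NF-Y, GGGCGG of the GC box, CCGGAAG of ETS factors, TGACG as one arm of the cyclic AMP response element, TGANTCA of AP-1, CACGTG of the E-box, GCATGCG as the core of the NRF1 motif and AAGATGG of YY1.
ISL2 (chr15:76336523-76336822, plus strand): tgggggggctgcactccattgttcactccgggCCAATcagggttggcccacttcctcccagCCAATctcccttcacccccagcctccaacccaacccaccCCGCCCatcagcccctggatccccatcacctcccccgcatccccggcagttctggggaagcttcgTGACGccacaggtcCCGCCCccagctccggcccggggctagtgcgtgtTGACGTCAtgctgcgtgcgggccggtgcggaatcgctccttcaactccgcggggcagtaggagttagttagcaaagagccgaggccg
ZBED5 (chr11:10858004-10858303, minus strand): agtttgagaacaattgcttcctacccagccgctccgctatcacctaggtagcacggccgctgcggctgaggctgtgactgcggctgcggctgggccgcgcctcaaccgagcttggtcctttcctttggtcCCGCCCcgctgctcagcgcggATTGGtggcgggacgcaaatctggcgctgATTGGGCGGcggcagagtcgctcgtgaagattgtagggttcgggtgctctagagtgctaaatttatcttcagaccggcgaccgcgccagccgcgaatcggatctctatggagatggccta
ALKBH5 (chr17:18183578-18183877, plus strand): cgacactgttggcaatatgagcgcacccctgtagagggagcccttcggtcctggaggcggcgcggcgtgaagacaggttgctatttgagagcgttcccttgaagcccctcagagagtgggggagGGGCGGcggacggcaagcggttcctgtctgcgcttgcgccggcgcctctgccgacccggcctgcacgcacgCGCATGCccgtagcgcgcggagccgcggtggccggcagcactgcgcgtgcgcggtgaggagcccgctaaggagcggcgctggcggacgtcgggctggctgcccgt
SNX14 (chr6:85593809-85594108, minus strand): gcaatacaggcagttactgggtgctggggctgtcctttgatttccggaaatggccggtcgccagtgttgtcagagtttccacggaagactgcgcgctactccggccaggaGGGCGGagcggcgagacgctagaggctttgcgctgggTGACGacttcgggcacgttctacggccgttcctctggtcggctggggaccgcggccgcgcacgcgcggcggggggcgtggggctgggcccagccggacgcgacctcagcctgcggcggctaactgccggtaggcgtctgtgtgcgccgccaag
ATP5L (chr11:118401356-118401655, plus strand): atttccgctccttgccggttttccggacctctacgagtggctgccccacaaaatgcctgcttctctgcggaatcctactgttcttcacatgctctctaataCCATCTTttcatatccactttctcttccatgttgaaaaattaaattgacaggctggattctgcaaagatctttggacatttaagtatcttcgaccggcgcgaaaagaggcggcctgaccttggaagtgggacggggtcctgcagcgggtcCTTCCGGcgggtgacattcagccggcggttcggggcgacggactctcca

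The peaks are given on build hg19, so these windows were not laid over them, and a RefSeq start need not be the same base as the start used for the peaks. GGGCGG was the most frequent match, in 4 of the 5 promoters, with ATP5L the exception; 45.0% of 35116 RefSeq promoters of this length hold it. CCAAT was found in ISL2 and ZBED5, 2 times each, and in 34.6% of all promoters. In ZBED5 the CCAAT on the opposite strand overlaps the GGGCGG that begins 67 bp before the start. TGACG was found in SNX14 and 3 times in ISL2, against 24.6% of all promoters with a match. In ISL2 a match on each strand, between 37 and 30 bp before the start, joins into the palindrome TGACGTCA, which 1.85% of all promoters hold; that longer motif was chosen after the matches were seen. ATP5L alone held CCGGAAG, just past its start (10.3% of all promoters), and AAGATGG (5.84%). ALKBH5 alone held GCATGCG, between 55 and 49 bp before the start (3.91%). The letters of the TATA box, AP-1 and the E-box had no match in the 5 windows and were found in 11.5%, 7.71% and 7.26% of all promoters.

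Base composition differed among the 5. G and C made up 71.0% of the ALKBH5 promoter, 68.7% of SNX14, 66.7% of ISL2, 61.7% of ZBED5 and 52.7% of ATP5L, where the median of all promoters was 58.7%, with quartiles of 47.0% and 68.0%. CG pairs numbered 39 in ALKBH5, 36 in SNX14, 29 in ZBED5, 20 in ISL2 and 19 in ATP5L, all above the median of 14. ATP5L was thus below the median in G and C content and above it in CG pairs.

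The selecting values were as follows. Among antibody 1 peaks that overlap antibody 2, ZBED5 ranked 3rd in width (2013 bp), ISL2 4th (1945 bp), SNX14 5th (1867 bp), ATP5L 7th (1839 bp) and ALKBH5 9th (1751 bp). The 10th region, on chromosome 12, was 1750 bp wide, and the 11th, the first outside the limit, was 1683 bp. The other 5 of the 10 regions belong to no member. These widths, and the presence of antibody 2 beneath them, describe the choice and support nothing further. The ranks hold for the list called against IgG alone: among all 54038 antibody 1 peaks called against input, ISL2 ranked 234th, ZBED5 420th, ALKBH5 519th, SNX14 615th and ATP5L 717th. In the account below, peaks are those called against IgG unless input is named, and upstream and downstream follow the direction of transcription given by RefSeq.

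ISL2 differed most from the other 4 in how its peaks were laid out. Its wide antibody 1 peak (chromosome 15, 76628843 to 76630787) began 222 bp upstream of the start and reached 1722 bp downstream, so that 88.5% of it was downstream. Antibody 2 followed it with a peak of 1491 bp, the 5th widest of that whole list, and a second of 358 bp, which together covered 93.8% of it. RNA polymerase II had a single peak of 1056 bp in the window, from 815 bp upstream to 240 bp downstream, and covered 23.8% of the antibody 1 peak. The polymerase peak and the wide peaks of both antibodies thus met over 416 bp around the start. From there the polymerase peak ran upstream and the wide peaks ran downstream. Antibody 2 also had narrower peaks upstream, such as a peak of 123 bp, 613 to 491 bp upstream, within the polymerase peak.

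Further into ISL2, antibody 1 had a second wide peak of 1253 bp, 3225 to 4477 bp downstream, which ranked 78th of all antibody 1 peaks. At the RefSeq gene length of 5703 bp it would lie within the gene, if the gene starts at the base used here. Antibody 2 covered 37.1% of it in 3 pieces and 66.4% against input. No RNA polymerase II peak touched it with either control. Another antibody 1 peak of 174 bp stood between the pair, 1828 to 2001 bp downstream; it met no antibody 2 peak with either control, and RNA polymerase II only against input, where 90.2% of it was covered. ISL2 also had 13 antibody 2 peaks within 10 kb, the most of the 5 genes.

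For antibody 1 and RNA polymerase II, the choice of control changed the number of peaks most at ISL2. For antibody 2 the number changed most at ATP5L, with 5 peaks against input in place of 7. Against input, the antibody 1 peaks of ISL2 rose in number from 3 to 6 and its RNA polymerase II peaks from 1 to 10, while antibody 2 had 14 in place of 13. The wide antibody 1 peak grew to 2465 bp by taking in the 174 bp peak. Of the 10 polymerase peaks against input, 3 lay between 1046 and 1986 bp downstream, inside the longer antibody 1 peak. A pair of polymerase peaks of 678 and 208 bp lay 9080 to 10048 bp downstream. Antibody 1 peaks of 373 and 123 bp lay inside this pair, and antibody 2 peaks of 331 and 298 bp overlapped it. The surroundings differed between controls too. Within 500 kb on each side of the start there were 41 antibody 1 peaks against input and 8 against IgG, and 51 and 11 RNA polymerase II peaks. The ratios of input to IgG there were 5.12 for antibody 1, beside 4.00 for the whole lists, and 4.64 for RNA polymerase II, beside 1.60. At the other 4 genes they were 1.29 to 2.00 and 1.01 to 1.42. For antibody 2 the ratio was 1.17 at ISL2 and 0.714 to 1.01 at the other 4, beside 1.04 for the whole lists. The part of these surroundings in the extra ISL2 peaks was not tested.

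**Figure D1:**
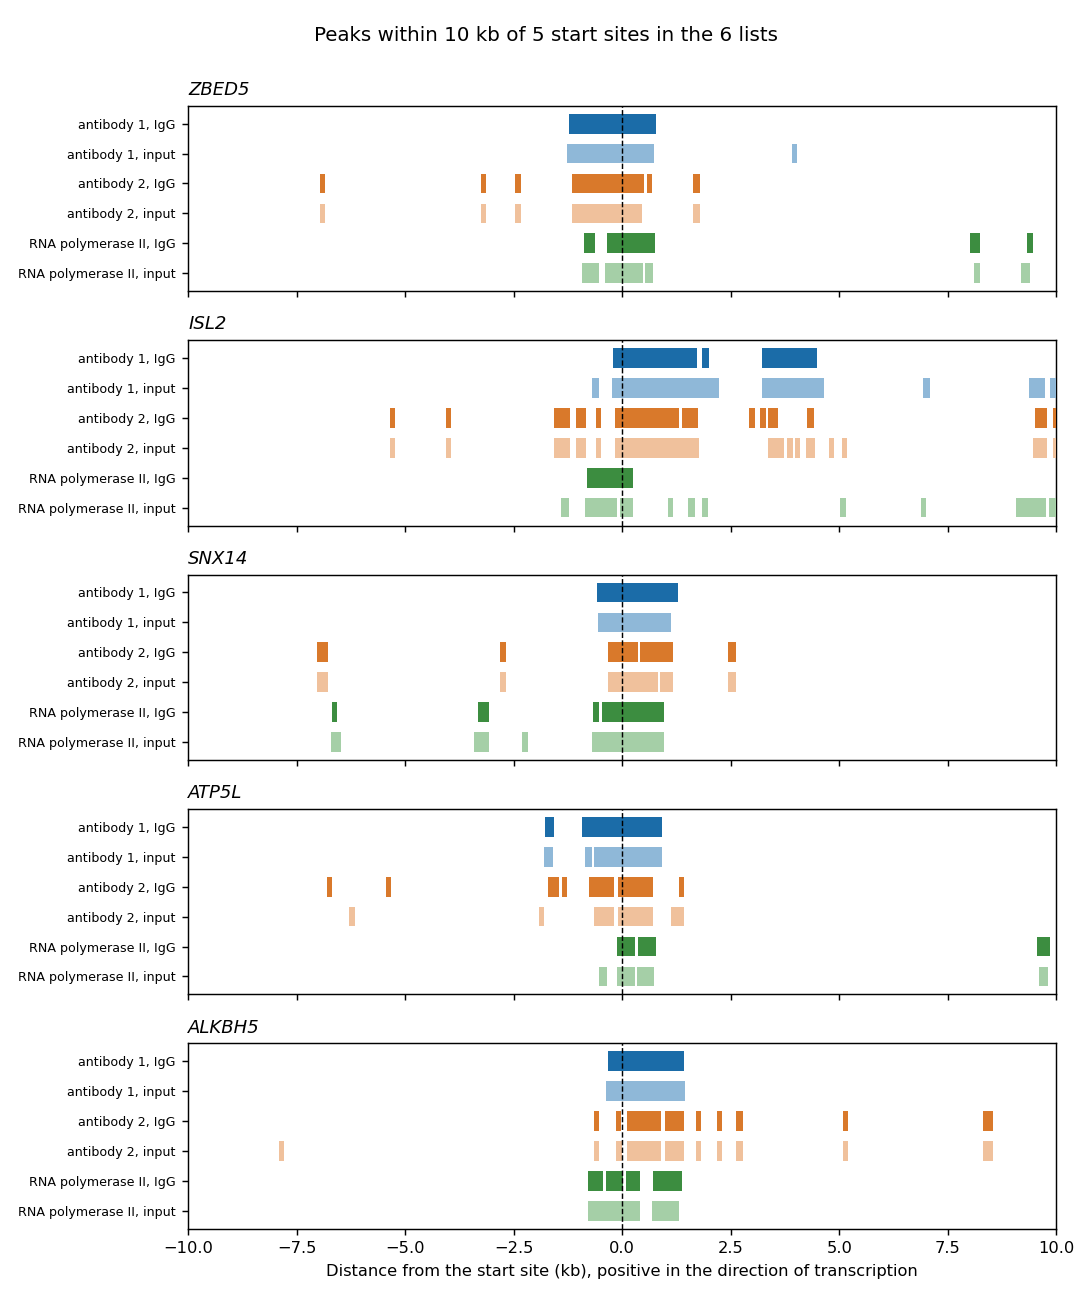
Peaks within 10 kb of the 5 start sites, with 1 row per list (dark bars called against IgG, pale bars called against input) and distance from the start in kb, positive in the direction of transcription; bars show called extent, not signal. ISL2 has 10 RNA polymerase II peaks against input and 1 against IgG, whereas SNX14 has 4 in both lists.

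ZBED5 had the widest antibody 1 peak of the 5 genes, and it lay mostly upstream. The peak (chromosome 11, 10878831 to 10880843) ran from 1223 bp upstream to 789 bp downstream, with 39.2% of it downstream, the lowest share of the 5. It was the only antibody 1 peak in the window, and the nearest others were 379194 bp away on the upstream side and 48086 bp on the downstream side. ZBED5-AS1, a long noncoding RNA on the opposite strand, is the nearest gene upstream in RefSeq and falls within the window, so the upstream part of the peak faces a gene transcribed the other way.

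Antibody 2 at ZBED5 had a peak of 1665 bp, the 2nd widest of all 465837, from 1161 bp upstream to 503 bp downstream, and a minimum-width piece of 123 bp beside it. Together these covered 88.8% of the antibody 1 peak, and 80.6% with both lists taken against input, where the small piece was missing. RNA polymerase II had a peak of 1093 bp from 345 bp upstream to 747 bp downstream and a separate one of 253 bp, 869 to 617 bp upstream, under the same antibody 1 peak. The 2 polymerase peaks thus lay on both sides of a stretch near the start that antibody 1 and antibody 2 bridged without a break. Another pair of polymerase peaks, of 232 and 129 bp, stood 8004 to 8235 bp and 9331 to 9459 bp downstream, beyond the RefSeq gene length of 5348 bp, and both were found again against input.

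ALKBH5 had its antibody 1 peak (chromosome 17, 18086677 to 18088427) mainly inside the gene, from 323 bp upstream to 1427 bp downstream. Against input it was 1813 bp wide in place of 1751 bp, and in both lists it was the only antibody 1 peak within 10 kb. Antibody 2 split into 3 pieces beneath it, of 123, 785 and 432 bp, which covered 76.5%. The start itself was in none of them: 1 piece ended 31 bp upstream and the next began 110 bp downstream, and the gap was also there against input. ALKBH5 was the only one of the 5 starts without an antibody 2 peak over it, but its position is given as a round number, and an antibody 2 peak was within 500 bp of every start. Outside the wide peak, antibody 2 had 5 more peaks downstream and 1 upstream; all 9 antibody 2 peaks in the window were found again against input.

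RNA polymerase II at ALKBH5 was called as 4 peaks of 353, 389, 322 and 669 bp between 795 bp upstream and 1383 bp downstream. Against input the first 3 merged into 1 peak of 1198 bp, and the last was 611 bp wide. The covered part of the antibody 1 peak was nearly the same with both controls, at 76.5% and, with both lists against input, 75.9%. Polymerase reached further upstream than antibody 1, by a peak that ended 443 bp upstream and did not touch it.

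SNX14 had the largest part of its antibody 1 peak under RNA polymerase II. The antibody 1 peak (chromosome 6, 86302579 to 86304445) ran from 571 bp upstream to 1295 bp downstream and was alone within 10 kb with both controls. RNA polymerase II covered 78.1% of it, mainly by a peak of 1422 bp from 456 bp upstream to 965 bp downstream. Of all polymerase peaks in that list, 1.59% were at least as wide. Antibody 2 covered 77.9% by pieces of 699 and 755 bp. Against input the first piece lengthened to 1158 bp, the second shortened to 301 bp, and RNA polymerase II had 1 peak of 1653 bp.

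The rest of the SNX14 window held few peaks, nearly the same with both controls; 1 polymerase peak of 147 bp, 2319 to 2173 bp upstream, was called against input alone. Polymerase peaks of 250 and 129 bp stood 3312 to 3063 bp and 6695 to 6567 bp upstream, and antibody 2 peaks of 123 and 260 bp stood 2808 to 2686 bp and 7032 to 6773 bp upstream. The nearest gene on that side in RefSeq, SYNCRIP, which encodes an RNA-binding protein, is more than 10 kb away. All 10 peaks called against IgG at SNX14, in the 3 lists together, were found again against input.

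ATP5L had an antibody 1 peak that reached about equally far to both sides of the start used here, and its widest RNA polymerase II peak was narrower than the widest of each other gene. The antibody 1 peak (chromosome 11, 118270942 to 118272780) ran from 927 bp upstream to 911 bp downstream; against input its middle was 128.5 bp downstream of that start. The start may come from an older annotation, and the distances at this gene depend on it. Antibody 2 pieces of 558 and 809 bp covered 74.3% of the antibody 1 peak. RNA polymerase II had peaks of 415 and 426 bp, from 118 bp upstream to 779 bp downstream, so that it covered 45.7% and left the upstream flank of the antibody 1 peak without a polymerase peak. Against input a polymerase peak of 184 bp appeared in that flank, 531 to 348 bp upstream, and the antibody 1 peak broke into 1566 bp and 140 bp. With both lists called against input the covered share was 63.0%.

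A second antibody 1 peak of 211 bp stood 1789 to 1579 bp upstream of ATP5L, 651 bp from the wide one. Antibody 2 covered 59.7% of it against IgG and none of it against input, and no polymerase peak touched it with either control. UBE4A, an enzyme that extends ubiquitin chains, is the nearest gene upstream in RefSeq and ends within the window. A polymerase peak of 301 bp lay 9554 to 9854 bp downstream, beyond the RefSeq gene length of 8242 bp, and was 211 bp wide against input. Of the 7 antibody 2 peaks in the window, 3 were found again against input, the lowest share of the 5 genes.

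A stretch that all 3 antibodies shared lay over the start in 4 of the 5 genes, and other shared pieces lay away from it. Each start was chosen at a wide antibody 1 peak that overlaps antibody 2. Shared bases near the start thus draw on the choice, and nothing is read from them. Counting bases that lie in peaks of all 6 lists, SNX14 had 1202 bp in 3 pieces, ZBED5 1049 bp in 2, ALKBH5 904 bp in 4, ATP5L 752 bp in 2 and ISL2 339 bp in 2. These were 64.4%, 52.1%, 51.6%, 40.9% and 17.4% of the antibody 1 peak. All 13 pieces lay in the wide antibody 1 peaks, which is fixed at ZBED5, SNX14 and ALKBH5, where no other antibody 1 peak was called against IgG in the window. The piece over the start was 796 bp long in ZBED5, 699 bp in SNX14, 403 bp in ATP5L and 293 bp in ISL2. In ALKBH5 the nearest pieces lay 153 to 31 bp upstream and 110 to 402 bp downstream. Because the 2 lists of an antibody come from the same precipitated reads, presence in all 6 adds little to presence in the 3 lists against IgG, which gave 4629 bp in place of 4246 bp over the 5 genes.

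**Figure D2:**
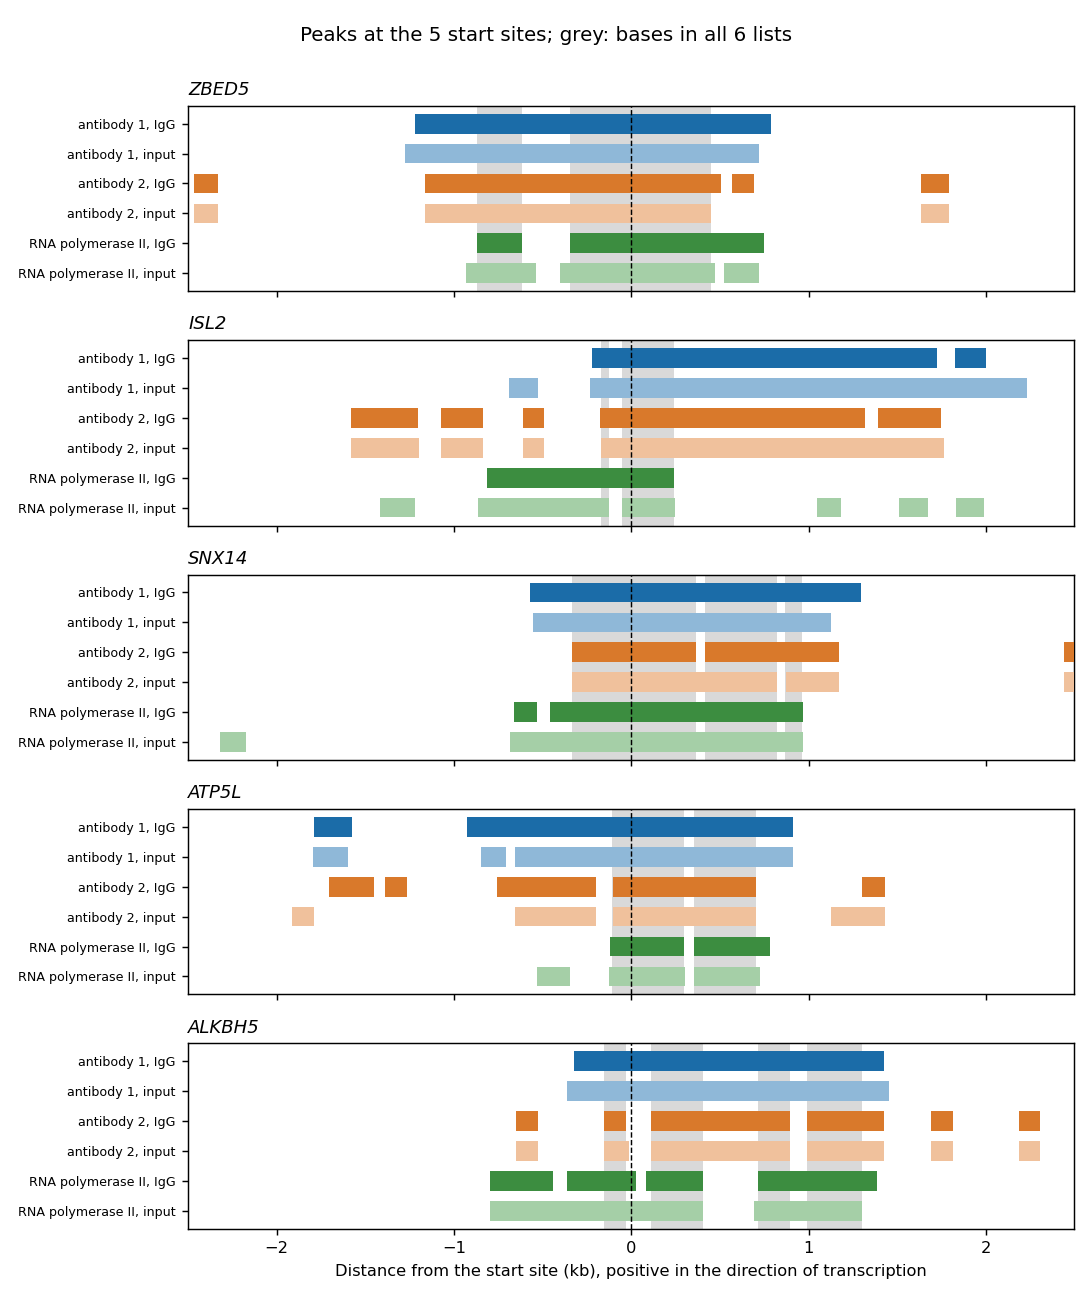
The same peaks within 2.5 kb of each start, with grey bands for bases that lie in peaks of all 6 lists and distance in kb, positive in the direction of transcription. The grey band is 796 bp long over the ZBED5 start and 293 bp over the ISL2 start, and at ALKBH5 the start falls between bands.

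RNA polymerase II peaks covered all 5 starts with both controls, and touched all 5 wide antibody 1 peaks. The second count is near what other wide antibody 1 peaks show: of the 187 others of 1000 bp or wider, all of them shared with antibody 2, 93.6% touched a polymerase peak (exact 95% interval 89.1% to 96.6%, counting error only), against 55.2% of all antibody 1 peaks. The 187 were not chosen at start sites, as the 5 genes were. Among them, the other 5 of the 10 widest regions had 66.6%, 0%, 14.3%, 41.9% and 0% of their width under polymerase. No share of covered starts was taken for other genes, so nothing is read from the 5 covered starts. The intervals treat peaks as independent. At 4 of the 5 genes, ISL2 being the exception, 2 or more polymerase peaks touched the wide peak, where 42.8% (35.6% to 50.2%) of the others had 2 or more. All 5 had 2 or more antibody 2 pieces, where 74.9% of the others did. Both counts of pieces draw on the choice, because the 5 peaks are 1751 to 2013 bp wide and the others have a median of 1193 bp, and a longer peak can touch more pieces. Nothing is read from them.

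Polymerase peak width varied more among the genes than antibody 1 width, which the choice had made alike. The widest polymerase peak under the antibody 1 peak was 1422 bp at SNX14, 1093 bp at ZBED5, 1056 bp at ISL2, 669 bp at ALKBH5 and 426 bp at ATP5L. The shares of all polymerase peaks that were at least as wide were 1.59%, 3.28%, 3.61%, 10.8% and 24.4%. The order depended on the control: against input the widest polymerase peak was 1653 bp at SNX14, 1198 bp at ALKBH5, 877 bp at ZBED5, 741 bp at ISL2 and 430 bp at ATP5L, and the shares at least as wide were 1.52%, 3.43%, 7.07%, 9.88% and 24.0%. SNX14 had the widest and ATP5L the narrowest of these with both controls. The widest antibody 2 peaks were those of ZBED5 and ISL2, followed by 3 genes with pieces of 755 bp (SNX14), 785 bp (ALKBH5) and 809 bp (ATP5L), which ranked 171st, 150th and 130th in that list. Against input ISL2 and ZBED5 changed order, with 1934 bp at ISL2 (3rd) and 1612 bp at ZBED5 (5th). In that list SNX14 had a piece of 1158 bp, the 33rd widest, while ALKBH5 and ATP5L kept their widths and ranked 205th and 183rd.

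In the share of the wide peak covered, the 5 genes mostly fell between the quartiles of the 187 other wide peaks. The share of the antibody 1 peak that antibody 2 covered was 74.3% to 93.8% at the 5 genes, with a median of 73.1% and quartiles of 59.6% and 83.2% among the others; ISL2 and ZBED5 were above the upper quartile. With antibody 2 peaks taken from the list against input and antibody 1 peaks against IgG, ISL2 (97.3%) was still above the upper quartile of 85.1%. ZBED5 (80.1%) was below that quartile, and ATP5L (68.8%) was below the median of 75.1%. With both lists against input, the share was 78.5% at ISL2, where the antibody 1 peak was 2465 bp wide. That share was not taken for the 187 other peaks. The genes were chosen by antibody 1 width and by overlap with antibody 2, and the others have a median width of 1193 bp. The 5 regions of 1750 to 2136 bp that belong to no member had 92.3%, 83.3%, 71.0%, 83.6% and 60.5% under antibody 2 against IgG. The place of the 5 genes among the others in antibody 2 share thus draws on the choice, and nothing is read from it. For RNA polymerase II the others had a median of 62.4% and quartiles of 34.5% and 83.1%. ISL2, at 23.8%, was below the lower quartile, and the other 4 genes lay between the quartiles. With polymerase peaks taken from the list against input, the share of ISL2 was 35.9%, still below the lower quartile of 40.6%. The 187 include the second wide peak of ISL2.

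**Figure D3:**
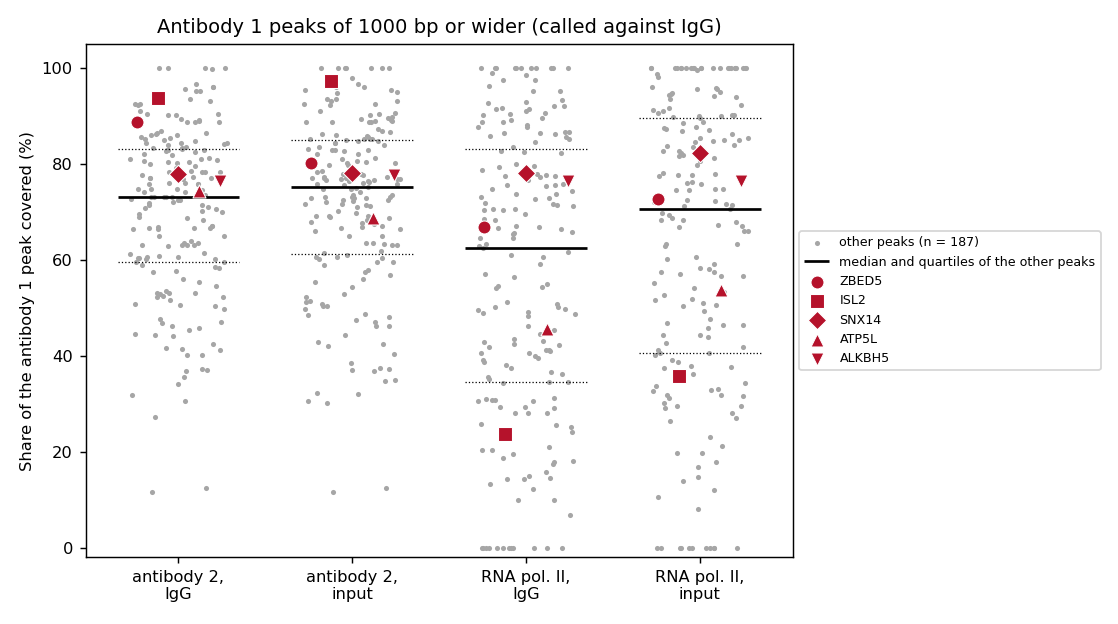
Share of each antibody 1 peak of 1000 bp or wider (called against IgG) that is covered by antibody 2 or RNA polymerase II peaks called against IgG or input, in percent; grey points are the 187 other peaks, red symbols the 5 genes, and lines the median and quartiles of the others. ISL2 has 93.8% under antibody 2, a share that draws on the choice of genes, and is low for RNA polymerase II (23.8%) in the lists against IgG.

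Away from the wide peaks, antibody 2 gave 29 of the 38 peaks called against IgG in the 5 windows (76.3%), where it makes up 88.0% of all peaks in those 3 lists. Of the 40 antibody 2 peaks against IgG, 11 touched the wide antibody 1 peak, 15 lay upstream of it and 14 downstream. In width, 17 of the 40 were 123 bp, the smallest in that list. The share of that width in the whole list was not taken, so nothing is read from the 17. Of the 16 polymerase peaks, 10 touched the wide peak, and 3 lay on each side. Antibody 1 had 3 further peaks, at ISL2 and ATP5L. Those 2 of the 5 genes had another antibody 1 peak within 10 kb of the wide one, as did 50.8% of the 187 other wide peaks.

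In windows of 10 kb around the middle of the wide peak, antibody 2 had 6 peaks at ZBED5, 13 at ISL2, 5 at SNX14, 7 at ATP5L and 9 at ALKBH5, beside a median of 7 and quartiles of 5 and 9 at the other wide peaks. For RNA polymerase II the counts were 4, 1, 4, 3 and 4 in the same order, beside a median of 2 and quartiles of 1 and 3. ZBED5, SNX14 and ALKBH5 were thus above the upper quartile. The counts include the pieces under the wide peak, which draw on the choice, so nothing is read from this. ISL2 thus had the most antibody 2 peaks and the fewest polymerase peaks of the 5 in the lists against IgG. The order for polymerase turned against input, where ISL2 had the most, at 11 in these centred windows.

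**Figure D4:**
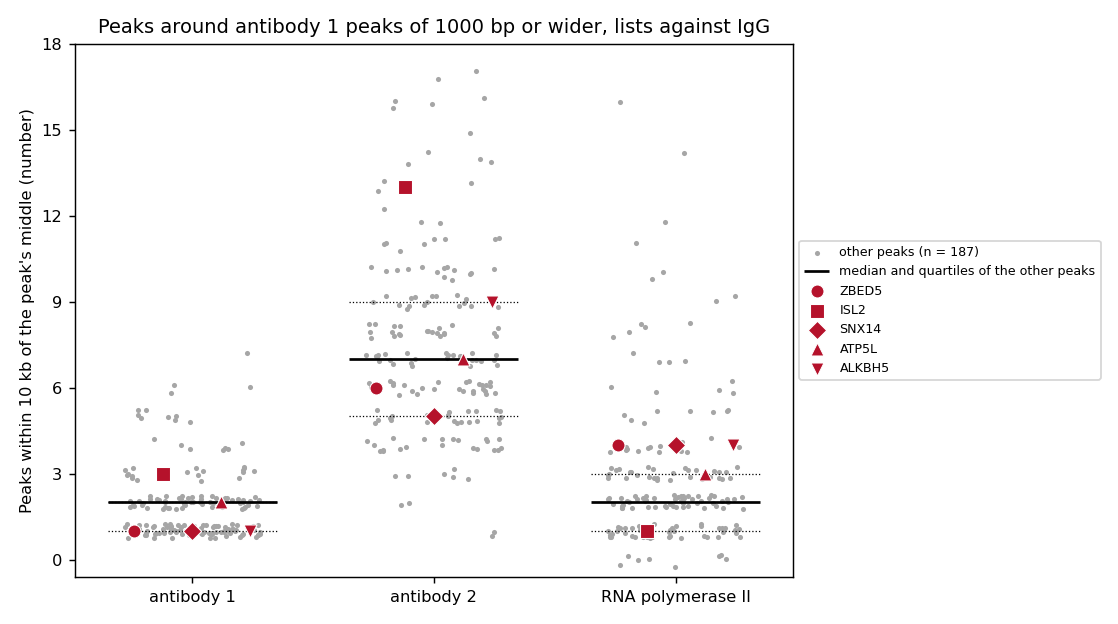
Number of peaks within 10 kb of the middle of each antibody 1 peak of 1000 bp or wider, in the lists against IgG; grey points (spread slightly in both directions so that they can be seen) are the 187 other peaks, red symbols the 5 genes, and lines the median and quartiles of the others. ISL2 has 13 antibody 2 peaks and 1 RNA polymerase II peak.

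Peaks at the 5 genes could be compared between controls. All 8 antibody 1 peaks and all 16 RNA polymerase II peaks called against IgG were found again against input, where 81.3% and 89.4% of the whole lists were. For antibody 2, 33 of 40 were found again (82.5%), against 93.2% of the whole list; the 7 that were missing included 4 at ATP5L and 2 at ISL2. In the other direction, 8 of 13 antibody 1 peaks against input were found against IgG (19.5% of the whole list), 15 of 25 RNA polymerase II peaks (52.4%) and 32 of 39 antibody 2 peaks (89.1%). The antibody 1 counts carry the choice of genes, since 5 of the 8 peaks against IgG are the wide peaks and 6 of the 13 against input touch them, so nothing is read from them. Away from the wide peaks, all 3 antibody 1 peaks against IgG were found against input, and 2 of 7 against input were found against IgG. The same counts were 6 of 6 and 5 of 12 for RNA polymerase II, and 23 of 29 and 23 of 30 for antibody 2. Without ISL2, the other 4 genes had 15 polymerase peaks with each control, and 5 antibody 1 peaks against IgG and 7 against input. In number, the net rise in polymerase peaks from 16 to 25 was thus at ISL2.

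The wide antibody 1 peaks were present with both controls, but their widths and ranks were not the same. Against input they were 1999 bp wide at ZBED5, 2465 bp at ISL2, 1684 bp at SNX14, 1566 bp at ATP5L and 1813 bp at ALKBH5, each over the same start. The surroundings differed in density. Within 500 kb on each side, antibody 1 had 5 peaks against IgG at ZBED5 and at SNX14, 8 at ISL2, 11 at ALKBH5 and 21 at ATP5L, and 9, 8, 41, 22 and 27 against input in the order ZBED5, SNX14, ISL2, ALKBH5 and ATP5L. RNA polymerase II in the same order had 18, 19, 11, 83 and 72 peaks against IgG. ISL2 thus had the fewest polymerase peaks in its surroundings against IgG, and SNX14 and ZBED5 the fewest antibody 1 peaks.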

How the data were processed

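ChIP-seq peak lists of 3 precipitated libraries (PRDM11 antibody 1, PRDM11 antibody 2, RNA polymerase II), each called against IgG and against input, were analysed. Per the submitters' processing notes, Bowtie 0.12.7, SAMtools, MACS2 2.0.9 and build hg19 were used, with no order or settings given; the q threshold of 0.1 and the control are known only from the names of the deposited lists. The authors deposited chromosome, start and end of each peak, with no score or read count. How duplicate reads were handled was not given in these sources. A low threshold or a control that lacks reads locally adds peaks, and closely spaced peaks may be merged or split by small differences in signal.

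Groups follow the antibody named in the labels. The start sites came with the choice of genes. The members, motifs and comparisons were chosen with earlier results of these data known. The 5 genes are all named; a neighbouring gene is named only as the nearest on either side in RefSeq. A peak counted when it touched a window or another peak by at least 1 bp. Positions are counted from 1. Strand, gene length, neighbours and promoter sequences came from RefSeq tables of build GRCh38.p14, matched by symbol, and no coordinates were carried between builds. Whether peaks fall in exons or introns was not analysed here. Exact (Clopper-Pearson) 95% intervals cover counting error only.

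Python 3.11.15 was used with SciPy 1.17.1 for intervals, pandas 2.3.3 and NumPy 2.4.6 for overlaps, and matplotlib 3.10.9 for figures. The code was tested on simulated data: it recovered 200 of 200 sets of planted pieces and 100 of 100 planted motifs, and 1800 of 1800 window counts were identical to those of bedtools 2.31.1. Alternatives were the input lists, windows of 5 and 20 kb, midpoints, peaks of 200 bp or wider, starts within 500 bp of a peak, and comparison regions of 500 bp or wider.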

Additional observations from a re-analysis of the deposited data

How the results depend on the processing

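Of 30 alternative values for the counts at starts, the counts in windows and the medians of other regions, 26 were within a factor of 1.5 of the reported value. The exceptions were the lists called against input, with 13 antibody 1 peaks in place of 8 and 25 RNA polymerase II peaks in place of 16, and for antibody 2 the window of 20 kb with 64 peaks in place of 40 and peaks of 200 bp or wider with 17. The last 2 follow from a wider window and fewer peaks; of the first 2, the rise in RNA polymerase II comes from ISL2 in number, and its cause was not tested. The share of the wide peak under antibody 2 lay outside its exact interval in 9 of 15 alternatives, and that under RNA polymerase II in 9 of 15; these intervals treat bases as independent and are narrow. Ranks by width depended on the control, and the antibody 1 peaks ranked 234th to 717th against input in place of 3rd to 9th. The windows centred on the wide peak, the ranks against input and the limit of 200 bp on pieces were chosen after seeing the data. No paired analysis was possible because each antibody has 1 library. Read depth is unknown, so how many reads stand behind a peak of minimum width cannot be told.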
